A study of Homo sapiens with 6 samples.

Results

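Formins are described here in T24 and UMUC3 cells, human bladder cancer lines, with and without knockdown of circPTK2, a circular RNA made from the PTK2 locus. The 9 genes were FMNL1, FMNL2 and FMNL3, DIAPH1, DIAPH2 and DIAPH3, DAAM1, INF2 and FHOD1, taken from 30717 genes in the count table by their symbols. They held 73 of the table's 136953 transcript rows, and all 9 genes passed the filter on low counts (30 counts or more in total, with 10 or more in 2 or more libraries). The group was chosen by the change of FMNL3 counts after knockdown in these same libraries, so the values of FMNL3 are given as a description with no test. The same holds for every formin in the T24 knockdown comparison. The other 8 formins are tested in the UMUC3 knockdown comparison and between the lines.

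The groups were T24 with circPTK2 knockdown (2 libraries), T24 control (1 library), UMUC3 with circPTK2 knockdown (2 libraries) and UMUC3 control (1 library). Titles of the samples name siRNAs numbered 1 and 2, but the design text speaks of sh constructs, so the kind of reagent stays unsettled, and the control is named only as CON. Separate cultures are not mentioned for libraries of the same group, so the spread behind each p-value may hold only technical differences besides those between reagents. The 2 knockdown libraries of a line carry different siRNA numbers and were fitted as replicates, so differences between the numbered reagents are part of that spread. Each control is a single library, and the fit takes its spread from the knockdown pairs.

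Formins are dimeric proteins that start new actin filaments and stay on the growing barbed end, where their FH1 domains bind profilin-bound actin and their FH2 domains add it to the filament. Most are held closed by contact between their own ends until an upstream signal opens them. In epithelial and tumour cells they are known for building filopodia, stress fibres and cell junctions, and free actin used up in this way releases MRTF, a coactivator that turns on SRF target genes.

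Libraries held 65111683 to 72362436 counts, of which 55071837 to 60780176 lay in rows naming a gene. The rows naming no gene held 14.86 to 16.1% of a library. Levels below are CPM, in which each count is divided by the total of the named rows and its TMM factor, unless stated otherwise. Among 14 urothelial markers in the table, the summed level was 3128 to 3349 CPM in T24 and 174 to 193 CPM in UMUC3. Epithelial keratins made up most of both sums: KRT7, KRT8, KRT18 and KRT19 in T24, and KRT8 and KRT18 in UMUC3. UPK1A, UPK1B, UPK2, KRT20 and TP63 were at or under 0.202 CPM in T24 and at or under 0.501 CPM in UMUC3. GATA3 was at 44.2 to 73.5 CPM in T24 and at or under 0.824 CPM in UMUC3. PPARG was at 62.4 to 63.2 CPM in T24 and at or under 4.94 CPM in UMUC3. E-cadherin (CDH1) was at 0 in 5 libraries and at 0.135 CPM in T24 knockdown 2. The 4 immune markers in the table summed to 7.53 to 9.34 CPM in T24, and to 54.6 and 51.4 CPM in UMUC3 knockdown, against 29.1 CPM in the UMUC3 control. CD68, a lysosomal protein of macrophages, made up most of the UMUC3 sums, while PTPRC, the defining leukocyte marker, stayed at or under 0.0673 CPM in all libraries. The 4 endothelial and stromal markers summed to 66.8 to 77.9 CPM in T24 and to 3.68 to 7.27 CPM in UMUC3. The endothelial cadherin CDH5 was at 64.5 to 75.5 CPM in T24 and at 0 in UMUC3, while the endothelial PECAM1 was at or under 1.02 CPM in all libraries. Whether these marker differences bear on the formins was not tested.

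FMNL3 (ENSG00000161791, GRCh38 chromosome 12, 49636499 to 49708165, minus strand) encodes a formin known for filopodia and for cell-to-cell contacts. The table lists 5 transcript rows for it, 2 of them protein coding. FMNL3-201 (ENST00000335154) has 26 exons and 3081 coding bases, and FMNL3-202 (ENST00000352151) has 25 exons and 2928 coding bases. The 153 coding bases that FMNL3-201 has and FMNL3-202 lacks form 1 exon block at chr12:49658442-49658594 on the minus strand, shown here, all in lower case, because it is the coding stretch that separates both proteins.
FMNL3-201 exon block absent from FMNL3-202: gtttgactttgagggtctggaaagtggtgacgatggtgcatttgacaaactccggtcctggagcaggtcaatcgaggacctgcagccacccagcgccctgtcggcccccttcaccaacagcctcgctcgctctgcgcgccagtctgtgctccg

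In T24, FMNL3 had 53.9 and 49.1 CPM in knockdown libraries 1 and 2, against 0.202 CPM in the control. UMUC3 had 49.1 and 36.3 CPM in knockdown libraries 1 and 2, against 1.52 CPM in the control. All 4 knockdown libraries lay far above both controls, and both T24 knockdown values lay above both UMUC3 knockdown values, the nearest by less than the rounding shown. The fitted log2 fold change was 7.98 ± 0.46 (SE) in T24 and 4.81 ± 0.35 in UMUC3. Each SE here was worked back from edgeR's quasi-likelihood F, as the absolute log2 fold change divided by the square root of F. For FMNL3, and for every formin in T24 knockdown, it describes the fit and is not read as a test. The counts behind these values were 3206 and 2919 in T24 knockdown, against 12 in the T24 control, and 2753 and 2213 in UMUC3 knockdown, against 85 in the UMUC3 control. In cultured cells sequenced in bulk, more cells with the RNA and more RNA per cell cannot be told apart.

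**Figure D1:**
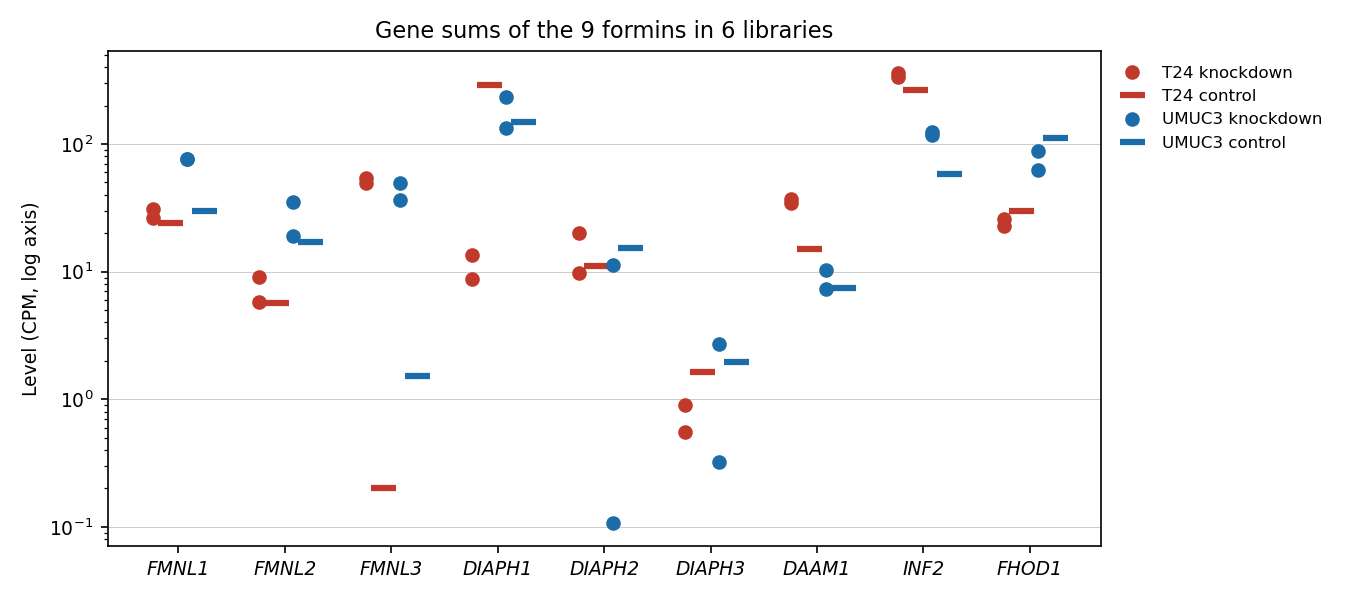
Level of each formin (gene sum, CPM, log axis) in the 6 libraries; circles are knockdown libraries, bars are the lone controls, red is T24 and blue is UMUC3. FMNL3 has 36.3 to 53.9 CPM in the 4 knockdown libraries and 0.202 and 1.52 CPM in the controls, and DIAPH1 is at 8.69 and 13.5 CPM in T24 knockdown and at 134 CPM or more elsewhere.

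The FMNL3 difference lay almost wholly in the protein-coding rows. FMNL3-201, with the exon block printed above, had 33.3 and 32.9 CPM in T24 knockdown and 30.7 and 29.8 CPM in UMUC3 knockdown, and it had 0 counts in both controls. FMNL3-202, without it, had 20.3 and 15.8 CPM in T24 knockdown and 16.6 and 5.37 CPM in UMUC3 knockdown, again with 0 counts in both controls. Set against a floor of 3 counts per control library, the mean of FMNL3-201 was at least 655-fold higher in T24 knockdown and at least 563-fold higher in UMUC3 knockdown. For FMNL3-202 these bounds were at least 358-fold and at least 204-fold. The non-coding rows together had a mean of 0.345 CPM in T24 knockdown, against 0.202 CPM in the T24 control, and 1.5 CPM in UMUC3 knockdown, against 1.52 CPM in the UMUC3 control. In the controls these rows carried every FMNL3 count.

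FMNL3-201 made up 61.8% (95% Wilson interval 60.1 to 63.5) and 66.9% (65.2 to 68.6) of FMNL3 counts in T24 knockdown 1 and 2. In UMUC3 knockdown it made up 62.5% (60.7 to 64.3) and 81.9% (80.3 to 83.5), so UMUC3 knockdown 2 stood apart with less of FMNL3-202. Intervals and floors cover counting error only. Shares are of counts not divided by length (12634 bases for FMNL3-201, 4006 for FMNL3-202), so they do not rank the rows per base. The composition distance, which is how much of a gene's total sits in other transcripts in the other library (0 none, 1 all), was 0.994 and 0.992 from T24 knockdown 1 and 2 to the control and 0.963 and 0.967 in UMUC3. Between the paired knockdown libraries it was 0.0563 in T24 and 0.201 in UMUC3. The median gene had a distance of 0.132 and 0.135 to the control in T24 and of 0.141 and 0.140 in UMUC3. For FMNL3 the distances are a description, as it was chosen by its change, and its controls held only 12 (T24) and 85 (UMUC3) counts.

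**Figure D2:**
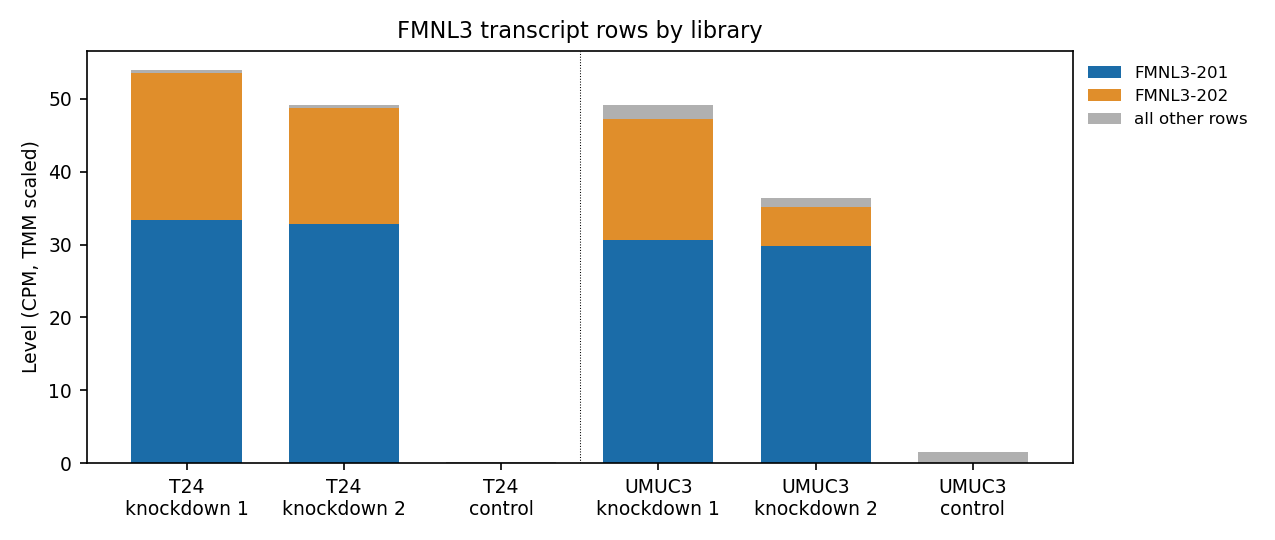
FMNL3 level (CPM, TMM scaled) in each library, stacked by transcript row; the dotted line parts T24 from UMUC3. FMNL3-201 (29.8 to 33.3 CPM) and FMNL3-202 (5.37 to 20.3 CPM) fill the knockdown bars, and both are at 0 in the controls, where only the other rows remain.

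Rows present in every knockdown library and empty in both controls were counted over the whole table. FMNL3 was chosen by its change after knockdown, so its place among them is a description. Of 121915 rows naming a gene, 11 rows of 10 genes had at least 5 CPM in all 4 knockdown libraries and 0 counts in both controls, and 2 of these 11 rows were FMNL3-201 and FMNL3-202. The reverse pattern, 0 counts in all knockdown libraries and at least 5 CPM in both controls, was met by 14 rows of 14 genes, none of them a row of the 9 formins. With a limit of 1 CPM, 44 rows of 41 genes met the first pattern and 57 rows of 55 genes met the reverse. How the authors' assignment of reads to transcripts bears on these empty rows was not tested.

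A pair of protein-coding genes overlaps the ends of FMNL3 on the opposite strand, and the sources used here do not say whether reads were counted by strand. PRPF40B, which overlaps the last part of FMNL3-201 (49636499 to 49644666), had 6.64 and 7.74 CPM in T24 knockdown, against 8.16 CPM in the control. UMUC3 values were 21.9 and 23.8 CPM in knockdown, against 12.9 CPM in the control. TMBIM6, which meets the gene's start, had 419 and 429 CPM in T24 knockdown, against 332 CPM in the control, and 546 and 939 CPM in UMUC3 knockdown, against 692 CPM in the control. FMNL3-202 (49644953 to 49707393) overlaps neither gene. FMNL3-201 reaches 49707414, short of the TMBIM6 overlap, which begins at 49707725. Whether reads from the opposite strand bear on the FMNL3 counts was not tested.

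FMNL1 (ENSG00000184922, chromosome 17, 45221444 to 45247320, plus strand) is best known from blood cells, where it acts in adhesion and migration. It had 76.5 and 76.9 CPM in UMUC3 knockdown, against 30.1 CPM in the control. The log2 fold change was 1.35 ± 0.18, and it did not pass (edgeR's quasi-likelihood test with Benjamini-Hochberg adjustment over 20721 genes, adjusted p = 0.077). In T24 it had 31.0 and 26.2 CPM in knockdown, against 24.2 CPM in the control (log2 fold change 0.24 ± 0.17). The paired UMUC3 knockdown libraries nearly coincided and lay well above the control, whereas the T24 libraries lay close together.

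Within FMNL1 the difference sat in 1 coding row. FMNL1-202 had 61.3 and 60.1 CPM in UMUC3 knockdown, against 0.591 CPM in the control. Its counts made up 80.1% and 78.1% of FMNL1 in UMUC3 knockdown, against 1.96% in the control (95% Wilson interval 1.40 to 2.74). In T24 the same row had 0.0168 and 0 CPM in knockdown, against 0.320 CPM in the control. FMNL1-207, a retained-intron row, took 14.1% and 14.6% of FMNL1 in UMUC3 knockdown, against 77.9% in the control. In T24 it took 74.9% and 55.1% in knockdown, against 69.5% in the control. The antisense gene AC008105.3 at the start of FMNL1 had 2.26 and 3.32 CPM in UMUC3 knockdown, against 2.01 CPM in the control. The UMUC3 knockdown libraries were therefore the ones in which FMNL1 was mostly the coding row, but as a single transcript FMNL1-202 did not pass in UMUC3 (edgeR, adjusted p = 0.325 over 76126 transcripts).

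FMNL2 (ENSG00000157827, chromosome 2, 152335237 to 152649834, plus strand), a formin at the front of moving cells, had 35.2 and 19.0 CPM in UMUC3 knockdown, against 17.2 CPM in the control. Its log2 fold change was 0.65 ± 0.50 (edgeR, adjusted p = 0.591), and the second knockdown library lay close to the control. In T24 it had 5.80 and 9.05 CPM in knockdown, against 5.69 CPM in the control. FMNL2-201 carried most of its counts in every library.

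DIAPH1 (ENSG00000131504, chromosome 5, 141515016 to 141619055, minus strand) encodes mDia1, a formin that builds stress fibres and also binds microtubule ends. Its main coding rows were DIAPH1-201, with 3684 coding bases, and DIAPH1-218, with 3750. In 3 stretches, 130 coding bases of DIAPH1-201 are not coding in DIAPH1-218, and in 5 stretches, 196 coding bases of DIAPH1-218 are not coding in DIAPH1-201. From each set 1 stretch, near the 3′ end of the coding part, is shown, all in lower case, since the rows' shares differed from library to library. They lie on the minus strand at chr5:141516854-141516972 and chr5:141518944-141518996.
DIAPH1-201 stretch not coding in DIAPH1-218: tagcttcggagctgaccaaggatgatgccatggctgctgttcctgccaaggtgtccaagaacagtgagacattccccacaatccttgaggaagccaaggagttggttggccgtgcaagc
DIAPH1-218 stretch not coding in DIAPH1-201: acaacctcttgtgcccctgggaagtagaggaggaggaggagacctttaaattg

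DIAPH1 lay on the opposite side of the T24 control to FMNL3. It had 8.69 and 13.5 CPM in T24 knockdown, against 290 CPM in the control, a log2 fold change of -4.71 ± 0.46. UMUC3 cells had 134 and 232 CPM in knockdown, against 149 CPM in the control. The UMUC3 knockdown libraries lay on both sides of their control, and the log2 fold change of 0.30 ± 0.45 did not pass (edgeR, adjusted p = 0.803) and was -0.15 without knockdown 2. The difference between the lines in the effect of knockdown was not tested.

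Coding rows accounted for most of the DIAPH1 pattern. DIAPH1-201 had 0 and 0.0168 CPM in T24 knockdown, against 95.7 CPM in the control. UMUC3 had 0 and 177 CPM in knockdown, against 55.1 CPM in the control, so the paired knockdown libraries differed from each other more than from the control. DIAPH1-218 had 0.925 and 2.46 CPM in T24 knockdown, against 137 CPM in the control, and 84.3 and 12.2 CPM in UMUC3 knockdown, against 54.1 CPM in the control. Summed over coding rows, DIAPH1 had a mean of 3.21 CPM in T24 knockdown, against 235 CPM in the control, which was 73.1-fold higher in the control. Summed over the other rows it had 7.88 CPM in T24 knockdown, against 54.8 CPM in the control, 6.95-fold higher in the control. DIAPH1-208, a retained-intron row, had 1.56 and 7.18 CPM in T24 knockdown, against 51.8 CPM in the control.

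**Figure D3:**
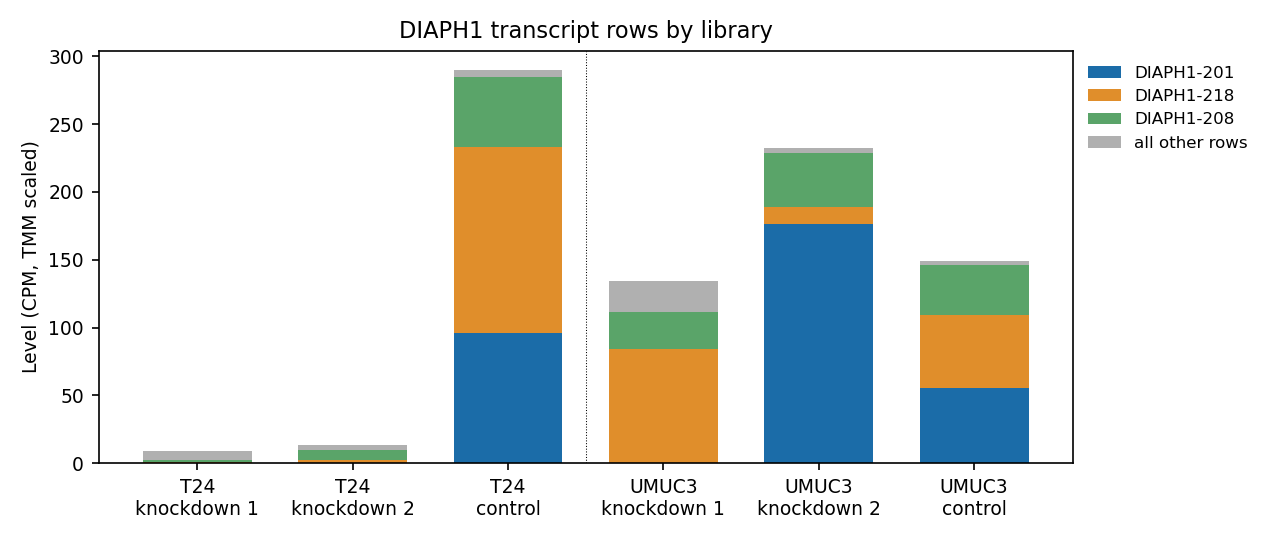
DIAPH1 level (CPM, TMM scaled) in each library, stacked by transcript row; the dotted line parts T24 from UMUC3. Both T24 knockdown bars (8.69 and 13.5 CPM) are short beside the T24 control (290 CPM), and UMUC3 knockdown 1 and 2 are filled by different coding rows, DIAPH1-218 and DIAPH1-201.

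DIAPH2 (ENSG00000147202, chromosome X, 96684663 to 97604997, plus strand), which encodes a diaphanous formin linked to endosome movement, had 9.75 and 20.3 CPM in T24 knockdown, against 11.2 CPM in the control. In UMUC3 it had 0.107 and 11.2 CPM in knockdown, against 15.3 CPM in the control. Knockdown 1 of UMUC3, with 6 counts, was the low library, and the log2 fold change of -1.41 ± 1.64 did not pass (edgeR, adjusted p = 0.735). DIAPH3 (ENSG00000139734, chromosome 13, 59665583 to 60163987, minus strand), which encodes mDia2, a formin used in filopodia and in cytokinesis, was scarce. It had 0.555 and 0.908 CPM in T24 knockdown, against 1.63 CPM in the control, and 0.321 and 2.71 CPM in UMUC3 knockdown, against 1.95 CPM in the control. The UMUC3 knockdown libraries lay on both sides of the control for DIAPH3, as they did for DIAPH1.

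DAAM1 (ENSG00000100592, chromosome 14, 59188646 to 59371405, plus strand) links Dishevelled in the planar polarity branch of WNT signalling to actin. It had 34.6 and 37.0 CPM in T24 knockdown, against 15.1 CPM in the control, a log2 fold change of 1.24 ± 0.27. In UMUC3 it had 7.33 and 10.2 CPM in knockdown, against 7.40 CPM in the control (log2 fold change 0.25 ± 0.28, edgeR, adjusted p = 0.725). Every T24 library lay above every UMUC3 library. Coding rows averaged 27.1 CPM in T24 knockdown, against 11.8 CPM in the control, and the other rows 8.74 CPM in knockdown, against 3.33 CPM in the control, so in T24 both kinds of row lay on the same side of the control.

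INF2 (ENSG00000203485, chromosome 14, 104689606 to 104722535, plus strand) both builds and severs actin filaments. It comes in a form that ends in a CAAX box, a lipid anchor site that places the protein on the endoplasmic reticulum, and a form without it. INF2-203 (ENST00000392634) codes for the CAAX end, with a cysteine codon 4 codons before the stop, and INF2-202 does not. The last coding stretches that are particular to each row, on the plus strand at chr14:104715284-104715336 and chr14:104718795-104718820, are shown because they tell the forms apart. Capitals mark the 12 bases of the CAAX box.
INF2-203 coding end: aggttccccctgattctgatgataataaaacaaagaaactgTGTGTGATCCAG
INF2-202 coding end: gcctcaggcccaggcccaaggccaag

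INF2 had 359 and 338 CPM in T24 knockdown, against 265 CPM in the control. In UMUC3 it had 117 and 123 CPM in knockdown, against 57.8 CPM in the control. The UMUC3 log2 fold change was 1.06 ± 0.10, and it lay just outside the threshold (edgeR, adjusted p = 0.0527). The T24 log2 fold change was 0.40 ± 0.10. Every knockdown library lay above its control, and every T24 library lay above every UMUC3 library.

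By share of counts, the row with the CAAX end was the largest INF2 row in T24 but not in UMUC3. Shares are not divided by length (4672 bases for INF2-203, 7578 for INF2-202, 1689 for INF2-204), so they do not rank the rows per base. INF2-203 made up 87.1% and 73.1% of INF2 counts in T24 knockdown and 84.0% in the T24 control. In UMUC3 it made up 29.5% and 23.9% in knockdown and 12.8% in the control. INF2-202 made up 9.24% and 21.6% in T24 knockdown and 7.31% in the T24 control, and 57.4% and 60.5% in UMUC3 knockdown and 37.6% in the UMUC3 control. Another short coding row, INF2-204, took 38.1% of the UMUC3 control and at most 12.05% of the other libraries. In CPM, INF2-203 had 312 and 247 CPM in T24 knockdown and 222 CPM in T24 control cells, against 34.6 and 29.4 CPM in UMUC3 knockdown and 7.40 CPM in the UMUC3 control. As a single transcript it was higher in T24 than in UMUC3 by a log2 fold change of 4.12 ± 0.19 (edgeR, adjusted p = 0.0257 over 76126 transcripts), whereas INF2-202 differed by -0.19 ± 0.39 (edgeR, adjusted p = 0.827).

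**Figure D4:**
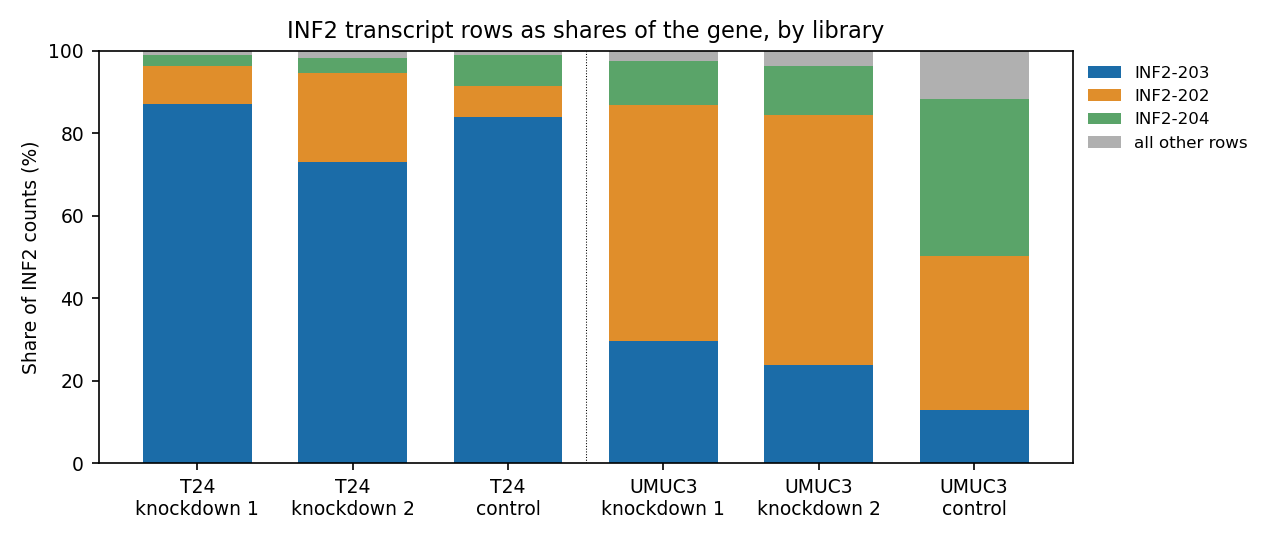
Share of INF2 counts (%) held by each transcript row in the 6 libraries; the dotted line parts T24 from UMUC3. INF2-203, the row with the CAAX end, fills 73.1 to 87.1% of the T24 bars and 12.8 to 29.5% of the UMUC3 bars.

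FHOD1 (ENSG00000135723, chromosome 16, 67229387 to 67247658, minus strand) encodes a formin of stress fibres that bundles and caps filaments. It had 23.0 and 25.8 CPM in T24 knockdown, against 29.9 CPM in the control. In UMUC3 it had 62.6 and 87.8 CPM in knockdown, against 111 CPM in the control (log2 fold change -0.56 ± 0.24, edgeR, adjusted p = 0.358). All knockdown libraries lay below their control. FHOD1-201, its sole coding row, made up 95.4% and 94.1% of FHOD1 in T24 knockdown, against 32.9% in the control, and 3.02% and 19.6% in UMUC3 knockdown, against 37.0% in the control. FHOD1-207, a retained-intron row with 20 exons, made up 0% and 0.0652% in T24 knockdown, against 62.0% in the control, and 86.7% and 67.4% in UMUC3 knockdown, against 53.3% in the control. In CPM the coding row averaged 23.1 in T24 knockdown, against 9.83 in the control, and 9.55 in UMUC3 knockdown, against 41.2 in the control, so it lay on opposite sides of the control in the lines although the gene sum did not. That difference between the lines was not tested. SLC9A5, which overlaps FHOD1 on the opposite strand, had 2.52 and 1.41 CPM in T24 knockdown, against 0.572 CPM in the control, and 9.503 and 3.876 CPM in UMUC3 knockdown, against 3.01 CPM in the control.

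In UMUC3 knockdown, 0 of the 8 formins other than FMNL3 passed, where 0.647% of 20721 genes did (edgeR, 134 genes), 0.43% as higher and 0.217% as lower. At an unadjusted p under 0.05 there were 2 of these 8, as there were 3490 of all genes. DESeq2 passed FMNL1 and INF2 among them, where it passed 1700 of all genes. FMNL3 and the T24 knockdown comparison served the choice of the group, so no call is read from them. For T24 the share of all genes past the threshold was 0.135% (28 genes), 0.0917% as higher and 0.0434% as lower. By size alone, FMNL1 and INF2, beside the chosen FMNL3, were at least 2-fold above the control in both UMUC3 knockdown libraries, where 8.62% of all genes were, and 0 formins were at least 2-fold below, where 6.44% were. In T24, DAAM1, beside FMNL3, was at least 2-fold above the control in both knockdown libraries, where 6.76% of all genes were, and DIAPH1 was at least 2-fold below, where 5.71% were, values from which nothing is read. The median log2 fold change of the 9, FMNL3 included, was 0.38 in T24 and 0.30 in UMUC3, where the median of all genes was 0 in both. These medians hold values that served the choice of the group, so nothing is read from them.

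Of the member transcripts, 54 of 73 passed the filter, and 0 passed the test in UMUC3 knockdown, where 0.00394% of all transcripts did (edgeR, 3 of 76126). Leaving out any 1 of the 4 knockdown libraries left 0 of all genes past the threshold in both knockdown comparisons. The fold change of FMNL3 stayed positive in each of those fits, from which nothing is read, as FMNL3 was chosen by this change.

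**Figure D5:**
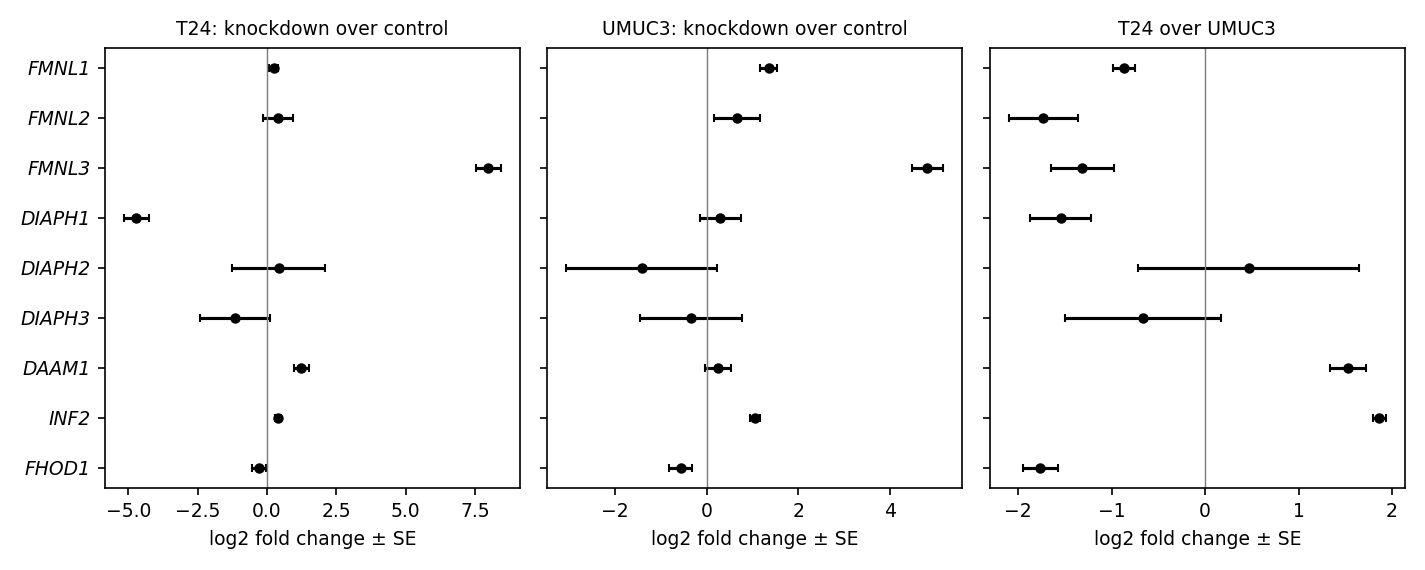
Fitted log2 fold change (points) with its SE (bars) for each formin, for T24 knockdown over T24 control, UMUC3 knockdown over UMUC3 control, and T24 over UMUC3. FMNL3 is farthest right in both knockdown panels (7.98 and 4.81), DIAPH1 is farthest left in T24 (-4.71), and INF2 and DAAM1 are the formins well right of 0 between the lines (1.86 and 1.53).

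Between the lines, 6 of the 8 formins other than FMNL3 passed, where 41.4% of all genes did. DAAM1 and INF2 were higher in T24, where 22.2% of genes were, and FMNL1, FMNL2, DIAPH1 and FHOD1 were lower, where 19.2% were. As single transcripts, 2 rows passed (INF2-203 higher and FHOD1-207 lower in T24), where 1.3% of all transcripts did. FHOD1-207 had 0 and 0.0168 CPM in T24 knockdown and 18.5 CPM in the T24 control. In UMUC3 it had 54.3 and 59.2 CPM in knockdown and 59.3 CPM in the control, so its line difference was smaller between the controls. INF2 was 3.64-fold higher in T24 (log2 fold change 1.86 ± 0.07, edgeR, adjusted p = 0.000554). DAAM1 was 2.89-fold higher in T24 (1.53 ± 0.19, edgeR, adjusted p = 0.00651), with 1.03 between the controls alone, where it did not pass. FHOD1 was 3.39-fold lower in T24 (-1.76 ± 0.18, edgeR, adjusted p = 0.00396), and it passed in the same direction among knockdown libraries alone and between controls alone. These 3 genes, with FMNL2, were the formins whose T24 and UMUC3 libraries did not overlap, which 52.3% of all genes met.

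FMNL2 was 3.32-fold lower in T24 (-1.73 ± 0.37, edgeR, adjusted p = 0.0261), with -1.87 among knockdown libraries and -1.60 between the controls, where it did not pass. This call was lost without either T24 knockdown library or without UMUC3 knockdown 1. The remaining line differences varied with the condition. FMNL1 was lower by a log2 fold change of -0.87 ± 0.12 (edgeR, adjusted p = 0.00829), with -1.42 among knockdown libraries and -0.32 between the controls, where it did not pass. DIAPH1 was lower in T24 over all libraries (-1.55 ± 0.33, edgeR, adjusted p = 0.0303), but the sign turned between the controls: the log2 difference was -4.05 among knockdown libraries and 0.96 between the controls. The DIAPH1 call was lost without either T24 knockdown library or without UMUC3 knockdown 2. FMNL3 had -1.32 ± 0.34 over all libraries, 0.27 among knockdown libraries and -2.90 between the controls, so its line difference rested on the low control values of 0.202 and 1.52 CPM. Between the controls alone, 2 formins other than FMNL3 passed, FHOD1 and INF2, where 5049 of 20721 genes did.

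Levels can be compared between genes only per length, so counts were also divided by transcript length and scaled to the same total in each library (TPM over named rows). By mean TPM over the 6 libraries the order was INF2 (98.7), DIAPH1 (67.2), FHOD1 (38.9), FMNL1 (27.6), DAAM1 (13.4), FMNL3 (9.72), FMNL2 (8.86), DIAPH2 (2.79) and DIAPH3 (1.12). INF2 led in T24 knockdown with 161 and 148 TPM, where DIAPH1 had 15.9 and 16.2 TPM. In the T24 control INF2 had 131 TPM and DIAPH1 had 136 TPM. In UMUC3, DIAPH1 had 58.8 and 104 TPM in knockdown and 72.4 TPM in the control, while FHOD1 had 41.5 and 66.7 TPM in knockdown and 75.8 TPM in the control. The ranges of every pair of neighbours in this order overlapped over the 6 libraries. FMNL3 itself ranged from 8.75 to 16.2 TPM in knockdown and from 0.547 to 2.63 TPM in the controls. Summed over the 9 genes, the level was 261 and 255 TPM in T24 knockdown, against 324 TPM in the control, and 228 and 302 TPM in UMUC3 knockdown, against 240 TPM in the control.

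Of 5 further formin genes, 4 passed the filter, and 0 of them passed in UMUC3 knockdown, where 0.647% of all genes did (edgeR). For T24 knockdown no call is read, as for the other formins. FMN1, a formin of cell junctions, had 44.1 and 41.3 CPM in T24 knockdown and 26.8 CPM in T24 control cells, against 0.981 and 0.443 CPM in UMUC3 knockdown and 0.716 CPM in the UMUC3 control. Its line difference was 5.57 ± 0.30 on the log2 scale (edgeR, adjusted p = 0.00105). FMN2, a formin of oocytes and neurons, had 0 counts in all T24 libraries, and it had 1.91 and 3.14 CPM in UMUC3 knockdown and 6.28 CPM in the UMUC3 control (edgeR, adjusted p = 0.00717 between the lines). FHOD3, known from heart muscle, had 26.8 and 17.5 CPM in T24 knockdown and 25.7 CPM in T24 control cells, against 55.3 and 36.5 CPM in UMUC3 knockdown and 43.9 CPM in the UMUC3 control, and did not pass (edgeR, adjusted p = 0.0631). DAAM2 was at or under 0.403 CPM everywhere.

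Partners of formins mostly did not pass after knockdown. Across 6 lists of partners (profilins with capping and inhibitor proteins, other actin nucleators, severing and monomer-binding proteins, filopodia and bundling proteins, MRTF-SRF with targets, and microtubule partners), 70 genes were tested. In UMUC3, 2 of them rose, where 0.43% of all genes did, and 0 fell, where 0.217% did. In T24, 0 passed, where 0.135% of all genes did. TMSB4X, which encodes the actin-monomer-binding thymosin beta 4, had 1774 and 1714 CPM in UMUC3 knockdown, against 1100 CPM in the control (0.66 ± 0.06, edgeR, adjusted p = 0.047). APC, a microtubule-end protein that works with DIAPH1, had 96.0 and 57.6 CPM in UMUC3 knockdown, against 0.591 CPM in the control (7.02 ± 0.58, edgeR, adjusted p = 0.047). In T24, APC had 0.605 and 0.622 CPM in knockdown, against 0.236 CPM in the control. Both calls were lost when any 1 of the 4 knockdown libraries was left out, as all calls in that comparison were, and under limma voom and the older kind of edgeR fit.

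Median log2 fold changes of these lists after knockdown lay close to the 0 of all genes in T24, from -0.18 for MRTF-SRF with targets to 0.18 for the microtubule partners. In UMUC3 they ran from -0.03 for severing and monomer-binding proteins to 0.33 for the microtubule partners. None of the 15 MRTF-SRF genes passed in either line (edgeR). At an unadjusted p under 0.05 there were 6 of them in T24, as there were 2598 of the 20721 genes, and 5 in UMUC3, as there were 3490. TAGLN, a smooth muscle actin-binding protein named for its difference between the lines, had 80.7 and 86.3 CPM in T24 knockdown, against 218 CPM in the control. In UMUC3 it had 2.75 and 3.30 CPM in knockdown, against 2.92 CPM in the control. Of the 15 genes, 4 had a positive log2 fold change in T24 knockdown and 8 in UMUC3 knockdown.

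Between the lines, 28 of these 70 genes were higher in T24 and 12 were lower, where 22.2% and 19.2% of all genes were. PFN1, the profilin that feeds actin to FH1 domains, had 332 and 404 CPM in T24 knockdown and 279 CPM in T24 control cells, against 73.1 and 69.5 CPM in UMUC3 knockdown and 79.4 CPM in the UMUC3 control. Of 10 filopodia and bundling genes, 7 were higher in T24 and 0 were lower, among them PLS3 (2.52 ± 0.06) and ACTN1 (1.19 ± 0.05), both cross-linkers of actin filaments. Of 15 MRTF-SRF genes, 6 were higher and 3 lower, with MYL9, a myosin light chain, at 237 and 216 CPM in T24 knockdown and 255 CPM in T24 control cells, against 0 and 0 CPM in UMUC3 knockdown and 0.0358 CPM in the UMUC3 control. Of 6 microtubule partners, 2 were higher and 2 lower. CLASP2, a microtubule-end protein, had 3.43 and 5.18 CPM in T24 knockdown and 5.76 CPM in T24 control cells, against 62.9 and 60.7 CPM in UMUC3 knockdown and 60.7 CPM in the UMUC3 control.

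The pattern of FMNL3 over the 6 libraries was most like that of 5 genes among 11138 compared by Pearson's r on log2(CPM + 1): ATP6V1G1 (0.994), ADAM9 (0.990), DUS2 (0.986), SPRY2 (0.985) and PCMTD1 (0.981). These are the highest values among all genes compared, and they rest on 6 libraries whose depth and scaling FMNL3 shares. ADAM9, a cell-surface protease, had 535 and 542 CPM in T24 knockdown, against 412 CPM in the control, and 528 and 543 CPM in UMUC3 knockdown, against 429 CPM in the control. ATP6V1G1, a subunit of the vacuolar proton pump, had 93.7 and 91.5 CPM in T24 knockdown, against 52.4 CPM in the control, and 93.4 and 91.5 CPM in UMUC3 knockdown, against 63.2 CPM in the control. These differences were far smaller than that of FMNL3. Among the other formins, r with FMNL3 ran from -0.59 (DIAPH1) to 0.50 (FMNL1).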

How the data were processed

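RNA was sequenced from 6 libraries of T24 and UMUC3 cells. The authors deposited raw read counts per transcript, with no normalisation stated. The genome build was hg38, per the submitters' processing notes, which also name HISAT2 2.1.0, FastQC 0.11.5 and StringTie 1.3.3b without saying what each did. Strandedness and RNA selection are not given in the sources used here. Rows naming no gene (14.86 to 16.1% of counts) were left out, and 121915 rows were summed to 30717 genes. Identifiers of 121869 rows matched GENCODE release 29 (GRCh38), which gave positions, coding parts and sequences.

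Genes were tested with edgeR 4.0.16 in R 4.3.3 (TMM, robust quasi-likelihood fit of 4 groups, 2 residual degrees of freedom, Benjamini-Hochberg threshold 0.05 over 20721 genes or 76126 transcripts). Replicate numbers follow the titles, which swap the T24 numbers of the column names. The titles' numbers did not pair the libraries. Paired knockdown libraries differed by more than sampling noise (chi-square per degree of freedom 112 and 108), so all were counted. Alternatives were DESeq2 1.42.0, limma 3.58.1 voom, other scaling and filters, each library left out, replicate blocks and single transcripts. Members, partner lists and naming rules were chosen with earlier results of these data known. Named are all formins, up to 3 main transcripts of each, up to 2 passing genes per list and direction, and the 5 genes most like FMNL3. A list of partner genes is not reported here.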

Additional observations from a re-analysis of the deposited data

How the results depend on the processing

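Counts of formins past the threshold, 1 in each knockdown comparison and 7 between the lines, include FMNL3 and T24 knockdown values that served the choice of the group, so they describe the settings and test nothing there. They changed as follows. In UMUC3 knockdown the count was 2 with no filter on low counts and 3 with DESeq2, and 0 with the older kind of edgeR fit (added after seeing the data), with limma voom, with either replicate block and with single transcripts. In T24 knockdown it was 3 with DESeq2, and 0 with a minimum of 50 counts in 2 libraries, the older edgeR fit, limma voom, either replicate block and single transcripts. Leaving out each library gave 0 to 1 in both knockdown comparisons and 4 to 6 between the lines. Between the lines it was 3 with control libraries only, where 5049 of all genes passed, and 2 with single transcripts. The cause was not tested.

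Signs changed for some formins and for FHL2, an SRF target. In UMUC3 knockdown the log2 fold change over the fits leaving out a library ran from -0.15 to 0.64 for DIAPH1, from -2.59 to 0.48 for DIAPH3, from -0.011 to 0.47 for DAAM1, from -0.69 to 0.45 for FMN1 and from -0.26 to 0.33 for FHOD3. In T24 knockdown it ran from -0.20 to 0.86 for DIAPH2, from -0.67 to 0.58 for DAAM2 and from -0.55 to 0.058 for FHOD3, and DAAM2 was -0.042 with limma voom and -0.088 with the replicate block by column names. Between the lines it ran from -1.42 to 0.28 for FMNL3, from -0.020 to 3.33 for DIAPH2 and from -1.08 to 0.46 for DIAPH3. With control libraries only it was 0.96 for DIAPH1, -0.45 for DIAPH2 and 0.095 for FHL2, and with knockdown libraries only 0.27 for FMNL3.

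The numbers of the titles did not pair the libraries: over 20721 genes the differences between numbers 1 and 2 correlated at -0.00138 between the lines, and at 0.00138 with the numbers of the column names. The replicate block left 6 formins between the lines by titles and 5 by column names, where 6253 and 6456 of all genes passed. Over all genes, the calls in UMUC3 and T24 knockdown were 134 and 28 in the main analysis, 1700 and 963 with DESeq2, 224 and 43 with no filter, 13 and 2 with the older edgeR fit, and 0 and 0 with limma voom or a replicate block. The gene sum of FMNL3 after knockdown kept its direction in each alternative fitted on gene sums. That tests nothing, as FMNL3 was chosen by this change and its control counts were far below those in knockdown. A single control library per line limits every knockdown comparison, and depth limits DIAPH3, DAAM2 and the empty FMNL3 rows.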
